A study of Rattus norvegicus with 21 samples.

Results

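The BCL2 family of apoptosis regulators was followed through the anterior pituitary gland of estrogen treated and sham treated rats. The genes examined were Bcl2, Bcl2l1, Mcl1, Bax, Bak1, Bad, Bid, Bik, Bcl2l11 and Bbc3, and every probe set that the array platform assigns to one of these symbols was taken, whatever its signal. This gave 15 probe sets of 9 genes, out of 31042 probe sets and 14217 genes on the array. The 1 probe set for Bax is assigned to a second gene as well, so no value is given for Bax. Of the 15 probe sets, 13 passed the filter on low signals. The exceptions were the probe set 1369180_at of Bcl2l1 and the probe set 1387338_s_at of Bcl2l11, which were above the 40th percentile on 0 of 21 arrays.

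Male ACI, COP (Copenhagen) and BN (Brown Norway) rats, all inbred, were given a Silastic implant when 9 weeks old and sacrificed when 21 weeks old. In DES treated rats the implant held 5 mg of diethylstilbestrol (DES), a synthetic estrogen, and in sham treated rats (control) it was empty. All rats, controls included, were injected with 50 mg/kg of BrdU, a thymidine analog taken up by dividing cells, 4 hours before death. There were 3 control and 4 DES arrays for each strain, 21 in all. ACI and BN rats came from one supplier and COP rats from another, so strain and supplier cannot be told apart where COP is compared. The series counts each array as a biological replicate, whereas its sample notes name 1 fewer independent replicate than rats in each group. Each array was taken as 1 rat, and if some share material, the p-values measure spread that is in part technical.

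Proteins of the BCL2 family meet at the outer mitochondrial membrane and decide whether it is breached, which releases cytochrome c and starts the caspases. Guardians such as Bcl2, Bcl2l1 (Bcl-xL) and Mcl1 keep the membrane intact, and the effectors Bax and Bak1 form the pore. The BH3-only proteins Bad, Bid, Bik, Bcl2l11 (Bim) and Bbc3 (Puma) carry death signals to both. In the rat pituitary, estrogens drive the lactotrophs, the cells that make prolactin, to divide, and lactotrophs die by apoptosis when the hormone is withdrawn. Much of the control of this family acts on the proteins, which an array of RNA does not measure.

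Signals are the linear intensities of the deposited table, each array scaled by the authors to a common mean. The 40th percentile of an array lay between 67.2 and 90.8, and signals under that range are near the floor. Changes are differences of log2(signal + 16), with a 95% interval, and a gene was called at an adjusted p under 0.05 (limma, Benjamini-Hochberg over 21827 probe sets). Each gene is represented by its probe set with the highest mean, and its other probe sets are described beside it. Levels of different probe sets are not compared. The median change with DES over the 11732 genes tested was -0.13 for ACI, -0.08 for COP and -0.06 for BN, and the changes below are to be read against these shifts. Prolactin was a strong signal on every array, from 24379.6 to 68841.3. Markers of the neural lobe and nerve were also detected, with a summed signal of 8 genes between 11153.6 and 14376.2 over all arrays. Of the 6 tested, 4 fell with DES in ACI and COP and 3 in BN, where 32.5%, 28.1% and 22.6% of all genes tested fell in ACI, COP and BN. The sum of the neural lobe and nerve markers did not follow. Its mean was higher after DES in ACI (12297.1 to 13200.8) and COP (11884.9 to 13237.8) and lower in BN (12901.1 to 12418.4). The ranges of control and DES overlapped in each strain.

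For orientation, the promoters of Bid, Bcl2l11 and Bad are shown, the BH3-only genes that changed with DES and have a window in the RefSeq table of the rat assembly GRCr8. The table held windows for 7 of the 9 genes, and not for Bik or Bbc3. Each window covers 250 bases before and 50 after the annotated start of transcription, written in the direction of the gene. Capitals mark GC boxes (GGGCGG), estrogen receptor core motifs (GGTCA) and FOXO core motifs (GTAAACA), read on both strands. A full estrogen response element holds the receptor core motif on each strand, so the counts of those motifs overlap. The windows are chr4:155808270-155808569 on the minus strand for Bid, chr3:135819792-135820091 on the plus strand for Bcl2l11 and chr1:213562864-213563163 on the plus strand for Bad.
Bid: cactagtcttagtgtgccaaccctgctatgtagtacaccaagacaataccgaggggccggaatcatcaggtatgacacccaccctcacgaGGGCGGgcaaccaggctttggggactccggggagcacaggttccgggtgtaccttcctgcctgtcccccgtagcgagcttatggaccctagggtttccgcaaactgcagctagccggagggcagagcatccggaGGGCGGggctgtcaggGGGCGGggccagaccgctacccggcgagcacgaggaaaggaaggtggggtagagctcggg
Bcl2l11: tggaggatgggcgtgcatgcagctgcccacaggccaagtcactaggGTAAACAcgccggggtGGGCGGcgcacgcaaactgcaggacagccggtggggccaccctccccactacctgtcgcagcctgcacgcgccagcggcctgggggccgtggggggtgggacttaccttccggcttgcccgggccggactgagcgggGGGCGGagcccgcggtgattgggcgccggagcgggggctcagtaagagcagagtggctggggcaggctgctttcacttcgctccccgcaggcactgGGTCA
Bad: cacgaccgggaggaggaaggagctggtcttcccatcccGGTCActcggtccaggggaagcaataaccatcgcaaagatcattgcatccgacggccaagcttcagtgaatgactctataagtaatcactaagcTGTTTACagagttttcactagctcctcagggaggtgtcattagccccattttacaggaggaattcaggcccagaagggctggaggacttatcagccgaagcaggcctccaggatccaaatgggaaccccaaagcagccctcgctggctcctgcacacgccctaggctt
The Bid window held 3 GC boxes, with a GC content of 63.3%. The Bcl2l11 window held 2 GC boxes, 1 receptor core motif and 1 FOXO core, at 71% GC. The Bad window held no GC box, 1 receptor core motif and 1 FOXO core, at 54.3% GC. No full estrogen response element and no E-box (CACGTG) was found in the windows of the 7 genes. Over all 33469 windows of the table the GC box was found in 33.1%, the receptor core motif in 40.5%, the FOXO core in 3.78%, the E-box in 6.42% and the full element in 0.0269%, and the median GC content was 51.7%. These are matches of letters in a short window and not sites of binding.

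With DES, 3 BH3-only genes rose in all 3 strains. They were Bik, Bid and Bcl2l11, at 2.59 to 4.51-fold, 1.59 to 2.36-fold and 1.72 to 1.92-fold of control. Bad, the BH3-only gene of survival factor signaling, fell in ACI and COP. The guardian Mcl1 rose in COP, while no change passed the test for Bcl2, Bcl2l1, Bak1 or Bbc3 in any strain in the fit over all arrays. Of the 9 genes, 4 were called in ACI (3 higher and 1 lower), where 55.6% of all genes tested were called. In COP 5 were called (4 higher and 1 lower), against 49.7% of all genes, and in BN 3 were called, each higher, against 39.6%. The shares of the family, 44.4%, 55.6% and 33.3%, were near those of the array as a whole. Those called higher in all 3 strains were 3 of 9, where the background was 11.7% of all genes. The median change of the 9 genes was 0.22 for ACI, 0.45 for COP and 0.22 for BN.

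**Figure D1:**
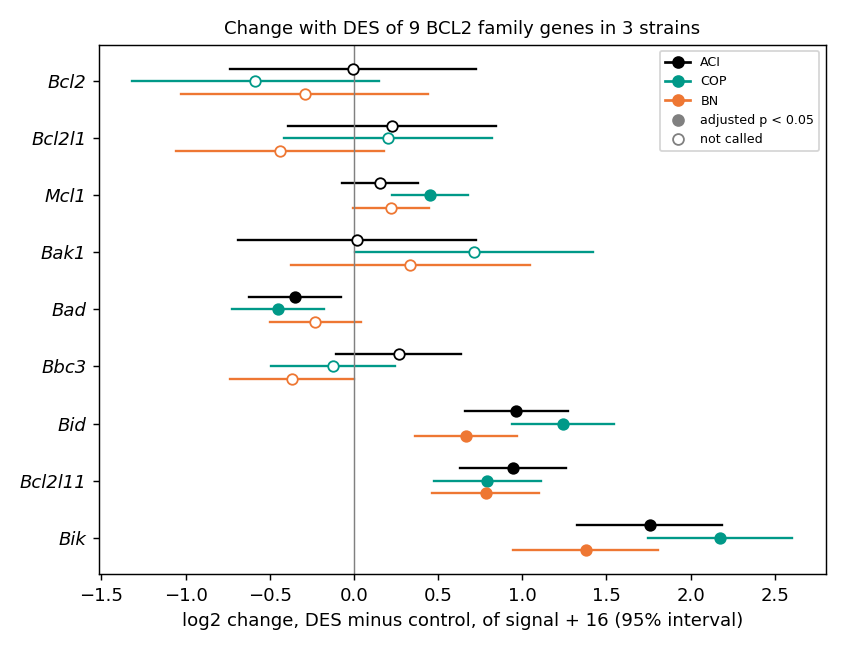
Change with DES in log2(signal + 16) for the 9 genes, each by its representative probe set, in ACI (black), COP (green) and BN (orange), with lines for the 95% interval. Filled points passed an adjusted p of 0.05 and open points did not. The points of Bik, Bid and Bcl2l11 lie between 0.67 and 2.17, right of 0 in each strain, and the intervals of Bcl2, Bcl2l1 and Bbc3 include 0.

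Bik encodes a BH3-only protein that resides mainly at the endoplasmic reticulum. In ACI its signal (1387249_at) was 283.5, 171.0 and 261.9 in the controls and 869.4, 798.9, 739.2 and 916.4 in the DES treated rats. In COP the controls gave 89.9, 125.4 and 114.7, and the DES treated rats 548.1, 680.8, 435.8 and 556.5. In BN the controls gave 185.4, 239.1 and 195.2, and the DES treated rats 390.4, 478.4, 699.1 and 741.8. Every DES treated rat lay above every control of its strain. The log2 rise was 1.76 in ACI (95% interval 1.33 to 2.19, adjusted p = 3.1e-07), 2.17 in COP (1.74 to 2.61, adjusted p = 2.1e-08) and 1.38 in BN (0.95 to 1.81, adjusted p = 2.2e-05). All 3 calls held under each of the 34 alternative settings tried. The COP rats started lowest and the ACI rats ended highest, and the BN rats fell into a lower and a higher pair after treatment.

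In order of the mean Bik signal the groups ran from ACI DES (831 ± 77.9, SD, n = 4) over BN DES (577 ± 169.9, n = 4), COP DES (555 ± 100.1, n = 4), ACI control (239 ± 59.7, n = 3) and BN control (207 ± 28.6, n = 3) to COP control (110 ± 18.2, n = 3). The neighbours BN DES and COP DES were not called different by limma (adjusted p = 0.95), nor were ACI control and BN control (adjusted p = 0.77).

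**Figure D2:**
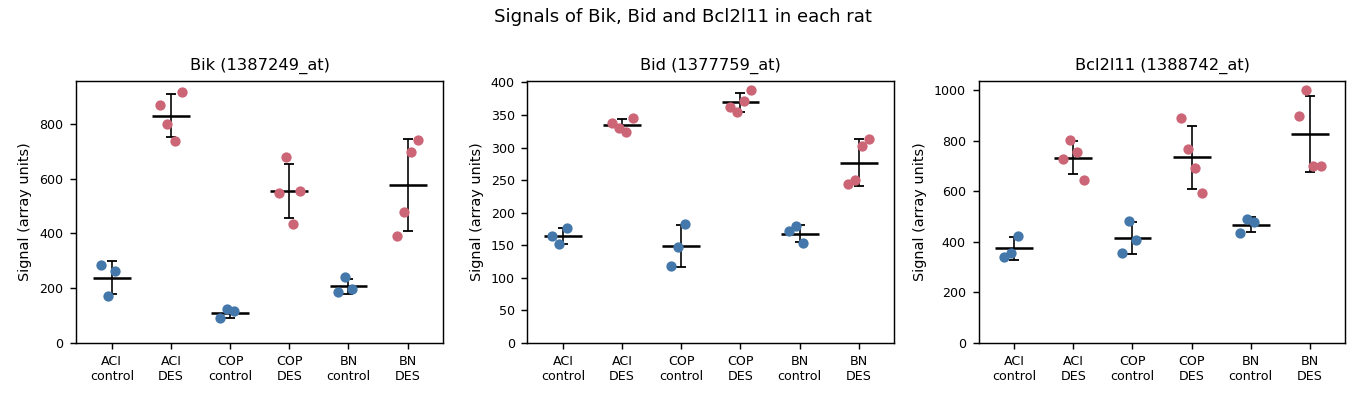
Signal (linear array units, axis from 0) of Bik, Bid and Bcl2l11 in each rat, with controls in blue and DES treated rats in red; the line is the group mean and the bar its SD. For each of the 3 probe sets all 4 DES treated rats of a strain lie above its 3 controls, and the BN DES rats numbered 3 and 4 sit above those numbered 1 and 2 for Bik and Bid and below them for Bcl2l11.

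Bid links the death receptors to mitochondria, being cut by caspase 8 into its active form. Its signal (1377759_at) in ACI was 163.9, 151.2 and 175.9 in controls and 338.3, 329.7, 324.2 and 345.4 after DES. In COP it was 118.3, 146.7 and 182.1 in controls and 362.8, 355.2, 370.8 and 388.6 after DES. In BN it was 171.1, 179.4 and 152.9 in controls and 243.6, 249.7, 301.7 and 312.9 after DES. Controls of the 3 strains overlapped, and after DES the BN rats lay below all ACI and COP rats. The log2 rise was 0.97 in ACI (0.66 to 1.27, adjusted p = 9.5e-06), 1.24 in COP (0.94 to 1.54, adjusted p = 4.5e-07) and 0.67 in BN (0.36 to 0.97, adjusted p = 0.0012). A second Bid probe set, 1369683_at, had signals between 7.5 and 67.9 in controls and between 78.3 and 161.2 after DES, a difference of 1.92 for ACI, 1.34 for COP and 1.10 for BN on the log2 scale. It was over the 40th percentile on 0 control arrays and 11 DES arrays, so it passed the filter on low signals only through the group in which it is high, and its values are given as a description without a test.

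Bcl2l11 encodes Bim, a BH3-only protein that binds all the guardians and whose gene is a target of FOXO factors. Its signal (1388742_at) in ACI was 340.9, 356.2 and 423.6 in controls and 728.1, 801.5, 756.1 and 644.8 after DES. In COP it was 357.0, 483.7 and 408.1 in controls and 888.3, 769.3, 691.2 and 592.9 after DES. In BN it was 433.7, 490.9 and 479.2 in controls and 897.2, 1003.0, 700.9 and 699.7 after DES. The groups were apart within every strain, and the DES treated rats of the 3 strains overlapped. The log2 rise was 0.94 in ACI (0.63 to 1.26, adjusted p = 2.1e-05), 0.79 in COP (0.48 to 1.11, adjusted p = 0.00021) and 0.78 in BN (0.47 to 1.10, adjusted p = 0.00038). The other probe set tested, 1370787_at, with signals between 40.2 and 142.6, did not show the rise. It gave 0.13, 0.20 and 0.43 (adjusted p = 0.76, 0.66 and 0.33), and its groups overlapped in each strain. The response of Bcl2l11 thus rests on 1 of its 3 probe sets.

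The array numbers within a group fall into 2 sets that deviate together, 1 and 2 against 3 and 4, and the rises were recomputed within each set. For Bik the log2 change in arrays 1 and 2 alone was 1.84 for ACI, 2.36 for COP and 0.98 for BN, and in arrays 3 and 4 it was 1.59, 1.96 and 1.80, all called. For Bid it was 1.01, 1.34 and 0.46 in arrays 1 and 2 and 0.87, 1.00 and 0.94 in arrays 3 and 4. The 0.46 of Bid in BN was the only one of these that missed the test (adjusted p = 0.058). For Bcl2l11 it was 1.10, 0.96 and 1.01 in arrays 1 and 2 and 0.70, 0.63 and 0.53 in arrays 3 and 4, of which the last was not called (adjusted p = 0.078). Arrays 3 and 4 hold 1 control per strain, whose spread is taken from the other groups.

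Bad, a BH3-only protein that is silenced when survival kinases phosphorylate it, was the single member to fall. Its signal (1386991_a_at) in ACI was 1162.5, 1001.1 and 777.7 in controls and 738.3, 660.5, 876.4 and 765.0 after DES, so the groups overlapped. In COP it was 1153.1, 1074.9 and 1042.5 in controls and 736.0, 865.6, 870.6 and 712.8 after DES, with the groups apart. In BN it was 926.5, 1133.0 and 915.3 in controls and 877.3, 878.9, 793.4 and 812.5 after DES, also apart. The log2 change was -0.35 in ACI rats (-0.62 to -0.08, adjusted p = 0.031), -0.45 in COP (-0.72 to -0.18, adjusted p = 0.0078) and -0.23 in BN (-0.50 to 0.04, adjusted p = 0.19). The ACI call was lost after quantile normalization (-0.22, adjusted p = 0.16) and median centring (-0.13, adjusted p = 0.44) and with only the ACI groups in the fit (-0.35, adjusted p = 0.068), and turned to 0.07 in arrays 3 and 4 alone. It was also lost without ACI control 1 (-0.22, adjusted p = 0.22), ACI control 2 (-0.32, adjusted p = 0.091), ACI DES 1 (-0.34, adjusted p = 0.060) or ACI DES 2 (-0.29, adjusted p = 0.097). In COP the call was lost in arrays 3 and 4 alone (-0.40, adjusted p = 0.14).

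Bbc3, which encodes Puma, an effector of p53, did not pass the test in any strain. Its signal (1382993_at) was 245.1, 242.1 and 468.9 in ACI controls and 352.4, 385.0, 347.2 and 391.2 after DES, a log2 change of 0.27 (-0.10 to 0.64, adjusted p = 0.23). ACI control 3 stood above all DES treated rats, and without it the change was 0.57 (adjusted p = 0.0041). In COP the signals were 377.1, 296.1 and 353.3 in controls and 316.9, 335.4, 338.7 and 260.2 after DES (-0.12, -0.49 to 0.25, adjusted p = 0.61), with the groups overlapping. In BN they were 385.8, 329.5 and 420.3 in controls and 300.5, 263.6, 291.9 and 299.1 after DES, apart, with a log2 change of -0.37 (-0.74 to 0.00244, adjusted p = 0.12), which was called without ACI control 3 (adjusted p = 0.037), an array that enters it only through the shared spread. The ACI value was called after median centring (0.48, adjusted p = 0.028) and in arrays 1 and 2 alone (0.57, adjusted p = 0.0083) but became -0.33 in arrays 3 and 4 alone, and the COP value was 0.06 after quantile normalization.

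Among the guardians, Mcl1 encodes a short-lived protein on which many cells depend. Its strongest probe set (1372520_at) gave 3721.2, 3624.8 and 4083.5 in COP controls and 4996.2, 5650.4, 5069.8 and 5117.5 after DES, with the groups apart and a log2 rise of 0.45 (0.22 to 0.68, adjusted p = 0.0019). This call was lost in arrays 3 and 4 alone (0.32, adjusted p = 0.16). In ACI it ran from 3864.2 to 4502.2 in controls and from 4253.5 to 5169.9 after DES (0.15, -0.07 to 0.38, adjusted p = 0.25). This ACI value was called after median centring (0.37, adjusted p = 0.011), in arrays 1 and 2 alone (0.26, adjusted p = 0.038) and with the mean of the Mcl1 probe sets (0.47, adjusted p = 0.0017), but was -0.07 after quantile normalization and -0.03 in arrays 3 and 4 alone. In BN it ran from 3454.8 to 4029.9 and from 3769.0 to 5325.6 (0.22, -0.01 to 0.45, adjusted p = 0.13), called with the mean of the probe sets (0.34, adjusted p = 0.027) and without BN DES 1 (0.29, adjusted p = 0.047). Another Mcl1 probe set, 1370141_at, differed in which strain passed. It gave 549.4, 645.0 and 420.1 in ACI controls and 877.2, 1158.8, 788.9 and 929.4 after DES, a rise of 0.79 (0.37 to 1.21, adjusted p = 0.0027). In COP and BN it gave 0.28 and 0.45 (adjusted p = 0.29 and 0.092), which became 0.35 and 0.53 (adjusted p = 0.035 and 0.0036) with the replicate number as a block and 0.48 and 0.64 (adjusted p = 0.027 and 0.0066) in arrays 1 and 2 alone. The BN value of this probe set was also called after quantile normalization (0.60, adjusted p = 0.017) and median centring (0.54, adjusted p = 0.044), and without BN control 2 (0.62, adjusted p = 0.044) or BN DES 4 (0.58, adjusted p = 0.042). Both Mcl1 probe sets were thus above control on average in each strain, with a call in COP for one and in ACI for the other.

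Bcl2, the founding guardian, had a low signal (1387611_at). In COP it was 184.9, 138.8 and 115.5 in controls and 81.4, 71.5, 145.9 and 77.6 after DES, a log2 change of -0.59 (-1.32 to 0.15, adjusted p = 0.19). COP DES 3 lay within the range of the controls, and the other DES treated rats lay below it. In arrays 1 and 2 alone the COP change was -0.93 and was called (adjusted p = 0.017), and in arrays 3 and 4 alone it was -0.10 (adjusted p = 0.93). In ACI the signal ran from 77.8 to 90.5 in controls and from 68.8 to 100 after DES (-0.01, -0.74 to 0.73, adjusted p = 0.99). In BN it ran from 59.6 to 89.7 and from 15.8 to 116.4 (-0.29, -1.02 to 0.44, adjusted p = 0.56). The ACI value was 0.17 after quantile normalization and 0.21 after median centring, so it has no settled direction.

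Bcl2l1, which encodes Bcl-xL, gave a log2 change (1370812_at) of 0.22 in ACI (-0.39 to 0.84), 0.20 in COP (-0.42 to 0.82) and -0.44 in BN (-1.06 to 0.18), at adjusted p of 0.56, 0.62 and 0.27. Its signals ran from 206.9 to 409.9 in ACI controls and 261.1 to 392.6 after DES, while COP gave 252.3 to 331.9 and 216.2 to 532.6 and BN gave 325.8 to 527.2 and 173.8 to 505.2. The groups overlapped in every strain. A further probe set, 1370485_a_at, ran from 29.3 to 149.2 over all arrays and gave -0.38, -0.09 and 0.08 (adjusted p = 0.48, 0.89 and 0.90). In BN its arrays 1 and 2 lay at 83.6 and 126.8 (control) and 149.2 and 139.6 (DES), above the 33.9, 35.6 and 43.9 of arrays 3 and 4. Bak1, the effector for which a value can be given, ran from 17.6 to 125.9 (1368066_at), near the floor on part of the arrays. Its log2 change was 0.02 in ACI (-0.69 to 0.72), 0.71 in COP (0.00375 to 1.42) and 0.34 in BN (-0.37 to 1.04), at adjusted p of 0.97, 0.098 and 0.48. The COP value of Bak1 depended on single rats, at 1.09 (adjusted p = 0.020) without COP control 2 and 0.91 (adjusted p = 0.042) without COP DES 4, both called, but 0.24 (adjusted p = 0.60) without COP control 3. It was 0.34 (adjusted p = 0.44) in arrays 1 and 2 alone and 1.55 (adjusted p = 0.087) in arrays 3 and 4 alone. The upper ends of the intervals reach 0.84 for Bcl2l1 and 1.42 for Bak1.

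**Figure D3:**
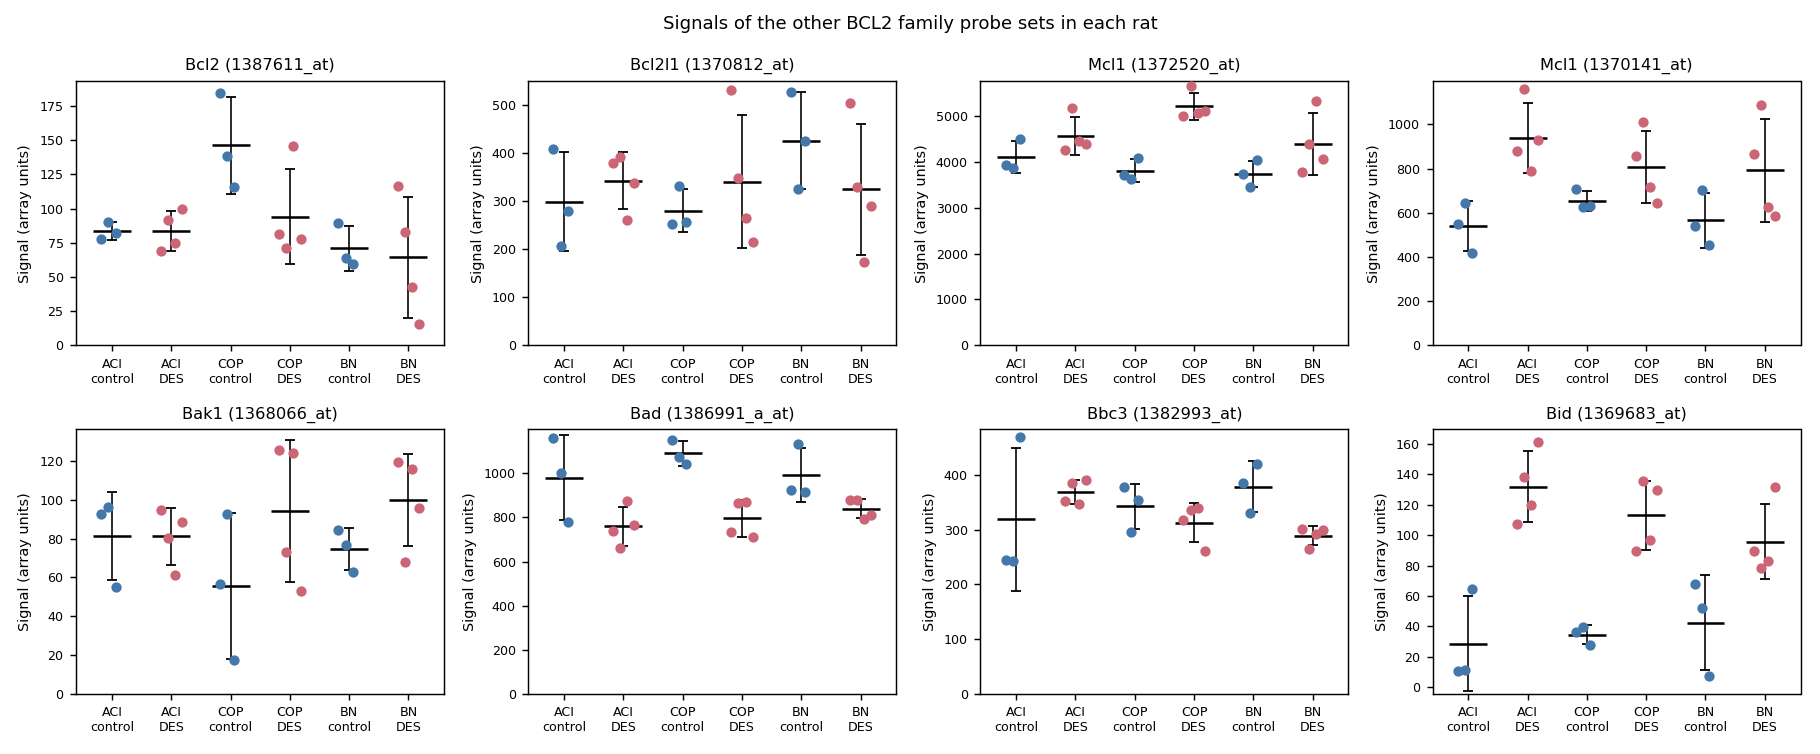
Signal (linear array units) in each rat of Bcl2, Bcl2l1 (1370812_at), both Mcl1 probe sets, Bak1, Bad, Bbc3 and the second Bid probe set. Controls are in blue and DES treated rats in red, with the group mean as a line and the SD as a bar. The tested probe sets 1370485_a_at of Bcl2l1 and 1370787_at of Bcl2l11 are not drawn. In the panel of Bad the groups are apart in COP and BN and overlap in ACI, and in that of the second Bid probe set the DES treated rats lie above the controls of their strain.

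Within a strain, the control and DES groups did not overlap for 3 of the 9 genes in ACI, 5 in COP and 5 in BN, where the shares over all genes tested were 59.8%, 55.3% and 42.2%.

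Strain was compared within the controls and within the DES treated rats. In controls, Bik was the 1 member that differed. It was higher in ACI than in COP by 1.00 (0.54 to 1.46, adjusted p = 0.021), where 1.19% of all genes were called. It was lower in COP than in BN by -0.82 (-1.28 to -0.36, adjusted p = 0.028), where 6.05% were called. Between ACI and BN controls, 0 of 9 members were called by limma (0 at an unadjusted p under 0.05), against 7.48% of all genes. Both Bik calls depended on single rats. The difference from ACI was lost without ACI control 1 (adjusted p = 0.15) or 3 (0.088) or COP control 1 (0.15) or 3 (0.056), and that from BN without COP control 1 (0.14) or 3 (0.063) or any BN control (0.054 to 0.12), at changes between 0.70 and 1.03 in size. Bcl2 was higher in all COP controls than in all BN controls (0.89, 0.11 to 1.68, unadjusted p = 0.027, adjusted p = 0.22).

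After DES, Bik was higher in ACI than in BN by 0.56 (0.16 to 0.95, adjusted p = 0.031), where 36.1% of all genes were called, although BN DES 4 lay above ACI DES 3. Without BN DES 1 the difference was 0.39 (adjusted p = 0.12), without BN DES 2 0.48 (0.082), and without ACI DES 1, 2 or 4 0.53, 0.57 and 0.51 (0.069, 0.050 and 0.080), none of them called. Bid was higher in COP than in BN by 0.40 (0.12 to 0.68, adjusted p = 0.036), where 25.9% of all genes were called, with all COP rats above all BN rats. That call was lost without any COP DES rat (0.055 to 0.079) and without BN DES 1 (0.096) or 2 (0.089), at differences of 0.35 to 0.42. Between ACI and COP, 0 of 9 members were called by limma (1 at an unadjusted p under 0.05, Bik at 0.58, adjusted p = 0.095), against 5.64% of all genes.

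No member passed the test of a difference in response between strains. By limma, 0 of 9 were called for ACI against COP, ACI against BN and COP against BN, with 0, 1 and 2 at an unadjusted p under 0.05, where 0.648%, 17.8% and 6.96% of all genes were called. The response of Bik was larger in COP than in BN by 0.80 (0.19 to 1.41, adjusted p = 0.13) and larger in ACI than in BN by 0.38 (-0.23 to 0.99, adjusted p = 0.44). That of Bid was larger in COP than in BN by 0.57 (0.14 to 1.00, adjusted p = 0.12) and in ACI than in BN by 0.30 (-0.13 to 0.73, adjusted p = 0.38). For Bcl2l11 the differences were 0.15, 0.16 and 0.01, with intervals that ran from -0.44 to 0.61 over the 3 pairs. Bbc3 differed by 0.63 between ACI and BN (0.11 to 1.16, adjusted p = 0.10), and by 0.93 (adjusted p = 0.0039) without ACI control 3. In arrays 1 and 2 alone the COP minus BN difference was called for Bik (1.37, adjusted p = 0.015) and Bid (0.89, adjusted p = 0.043), and the ACI minus BN difference for Bbc3 (0.89, adjusted p = 0.014). The other set of arrays, with 1 control per strain, gave 0.16 for Bik, 0.06 for Bid and 0.15 for Bbc3 in these comparisons. For Bik the intervals reach 1.41 on the log2 scale, and for Bid 1.00.

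Other cell types and dividing cells moved with treatment in these bulk samples, in which fewer cells of a type and less RNA per cell cannot be told apart. Of 12 leukocyte and macrophage markers tested, 9 rose and 0 fell in ACI, 11 rose and 1 fell in COP, and 4 rose and 1 fell in BN. The summed signal of the 14 markers on the array ran from 8006.6 to 9303 in ACI controls and 17689.3 to 21687.6 after DES, whereas COP gave 9264.2 to 9762.9 and 18706.9 to 24960.5 and BN gave 10841.5 to 13051.1 and 10825.8 to 20411.4. In BN the DES treated rats split by number, at 10994.9 and 10825.8 for rats 1 and 2 and 17763.6 and 20411.4 for rats 3 and 4, as did Bik and Bid. Bik was 390.4 and 478.4 in rats 1 and 2 and 699.1 and 741.8 in rats 3 and 4, against at most 239.1 in BN controls. Bcl2l11 split the other way, at 897.2 and 1003.0 in rats 1 and 2 and 700.9 and 699.7 in rats 3 and 4. Of 15 markers of dividing cells, 11 rose and 0 fell in ACI, 9 rose and 1 fell in COP, and 2 rose and 3 fell in BN. Of 8 endothelial markers 5 fell in ACI, 1 fell in COP and 1 rose in BN. Of 9 fibroblast and matrix markers 4, 5 and 3 fell and 1, 2 and 1 rose in ACI, COP and BN. The summed signal of the 10 on the array ran from 14159.8 to 16864.8 in ACI controls and 7906.7 to 9888.1 after DES, from 14098.7 to 16190.3 and 6451.1 to 8717.2 for COP, and was higher after DES for BN (8902.2 to 11022.1 against 11642.8 to 14211.8). Of 6 neural lobe and nerve markers tested, 4, 4 and 3 fell and 1 rose in each strain, with list medians of -0.69, -0.81 and -0.61. The mean summed signal of the 8 on the array was nevertheless higher after DES in ACI and COP and lower in BN. Of 7 folliculostellate markers 5 fell in each strain, and of 8 gonadotroph markers 6, 6 and 4 fell and 0, 0 and 1 rose. For 6 lactotroph markers, 2 fell in each strain and 0, 1 and 2 rose. The 4 thyrotroph markers had 2, 3 and 1 fall and 0, 0 and 1 rise, and the 4 somatotroph markers 2, 1 and 2 fall and 0, 1 and 1 rise. Trhr and Pou1f1 are in both the lactotroph and the thyrotroph list, so the counts of those lists are not independent. Corticotrophs and melanotrophs (3 tested) had 2, 2 and 1 fall and 1 rise in each strain, and red blood cells (4 tested) 1, 1 and 0 fall and 1 rise in each. The part of these cell types in the changes of the BCL2 family was not tested.

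The rest of the pathway was described by fixed lists, beside the background of all genes tested. In ACI 23.2% of those were called higher and 32.5% lower, while COP had 21.7% and 28.1% and BN had 17% and 22.6%. Of the other BCL2 family genes, 8 of 13 were tested. In ACI 1 rose and 0 fell, in COP 1 rose and 2 fell, and in BN 0 rose and 2 fell, with list medians of 0.12, 0.04 and -0.24. Bcl2a1, a guardian best known in blood cells, rose by 1.66 in ACI and 1.39 in COP (adjusted p = 0.0012 and 0.0061) and gave -0.13 in BN (adjusted p = 0.83). Its mean signal was 47.3 ± 7.06 (SD, n = 3) in ACI controls and 185 ± 34.5 (n = 4) after DES, and 97.3 ± 39.0 and 98.2 ± 66.4 in BN. The ACI control mean lay under the range of the 40th percentile, 67.2 to 90.8, so the size of the ACI rise is uncertain. The ACI and BN responses of Bcl2a1 differed by 1.79 (adjusted p = 0.032). Hrk, a BH3-only gene of neurons, was not called in any strain (0.90, 0.80 and -0.89), though its response differed between ACI and BN by 1.78 (adjusted p = 0.030). Its group means lay between 19.3 and 99.8, close to the floor.

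Downstream of the mitochondria, 10 of 13 genes of the apoptosome and the caspases were tested, of which 2 rose and 2 fell in ACI, 1 rose and 3 fell in COP, and 2 rose and 2 fell in BN (medians 0.04, 0.14 and -0.16). Parp1, a DNA repair enzyme that caspases cut, rose by 0.81, 0.84 and 0.54 in ACI, COP and BN (adjusted p = 0.0016, 0.0015 and 0.039). Aifm1, a mitochondrial flavoprotein that can enter the nucleus in dying cells, fell by 0.56, 0.45 and 0.35 on the log2 scale (adjusted p = 3.1e-05, 0.00041 and 0.0053). Casp2, an initiator caspase, fell by 0.69, 0.97 and 0.53 (adjusted p = 0.0041, 0.00022 and 0.034), but with the mean of its probe sets the value was -0.34 in ACI and -0.17 in BN, neither called. Without BN control 1 or 3 or BN DES 1 or 2 the BN call of Parp1 was lost (0.37 to 0.54, adjusted p = 0.092 to 0.17), and without BN control 1 or 2 or BN DES 3 or 4 that of Casp2 (-0.53 to -0.39, adjusted p = 0.081 to 0.14). Casp6, an executioner caspase, fell by 1.80 in COP (adjusted p = 4.1e-05), gave -0.60 and -0.33 in ACI and BN, and its response differed between COP and BN by -1.47 (adjusted p = 0.045).

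Of the caspase inhibitors and their antagonists, 7 of 9 were tested. In ACI 2 rose and 3 fell, in COP 2 rose and 5 fell, and in BN 0 rose and 3 fell (medians -0.26, -0.46 and -0.19). Septin4, whose product ARTS antagonizes the inhibitor XIAP, fell by 1.93, 1.01 and 0.91 in ACI, COP and BN (adjusted p = 2.0e-08, 0.00017 and 0.00073), and the fall was larger in ACI than in BN (-1.02, adjusted p = 0.013). Birc2, an inhibitor of apoptosis that also acts in TNF signaling, fell by 0.77, 0.73 and 0.53 (adjusted p = 0.00047, 0.0011 and 0.015), the BN call being lost without BN control 1 or 2 or BN DES 3 (-0.51 to -0.37, adjusted p = 0.054 to 0.086). Htra2, a mitochondrial protease released with cytochrome c, rose by 0.91 in ACI and 0.46 in COP (adjusted p = 7.8e-06 and 0.0092) and gave 0.08 in BN, and ACI and BN differed by 0.83 (adjusted p = 0.0051).

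The death receptor pathway, which Bid links to the mitochondria, had 9 of 11 genes tested, of which 2 rose and 1 fell in each strain (medians 0.03, 0.03 and 0.29). Tnfsf10, the ligand TRAIL, fell by 1.90, 1.92 and 1.55 in ACI, COP and BN (adjusted p = 9.6e-08, 1.3e-07 and 5.0e-06). The mean Tnfsf10 signal changed from 400 ± 77.8 (SD, n = 3) to 94.5 ± 12.8 (n = 4) for ACI, from 445 ± 34.1 to 107 ± 14.6 for COP and from 436 ± 118 to 139 ± 38.3 for BN. Tradd, an adaptor of the TNF receptor, rose by 0.98, 0.61 and 0.58 (adjusted p = 2.4e-05, 0.0034 and 0.0073), and without BN control 3 the BN value was 0.44 (adjusted p = 0.063). Ripk1, a kinase of the same complex, rose in ACI and COP (0.57 and 0.35, adjusted p = 0.00080 and 0.033) and gave -0.01 in BN, a difference of 0.58 between ACI and BN (adjusted p = 0.035). Its COP call was lost without COP control 2 or COP DES 1, 2 or 3 (0.26 to 0.34, adjusted p = 0.059 to 0.17).

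Upstream regulators of the family had 15 of 18 genes tested, of which 4 rose and 7 fell in ACI, 3 rose and 6 fell in COP, and 3 rose and 8 fell in BN (medians -0.25, -0.22 and -0.32). Pim3, a kinase that can phosphorylate Bad, rose by 1.28, 1.502 and 2.05 in ACI, COP and BN (adjusted p = 7.5e-08, 1.1e-08 and 2.0e-10), less in ACI than in BN (-0.76, adjusted p = 0.011). After DES its mean signal was 2183 ± 92.7 for ACI, 2281 ± 67.7 for COP and 3140 ± 549 for BN (SD, n = 4). Akt1, another Bad kinase, fell by 0.47, 0.46 and 0.82 (adjusted p = 0.0018, 0.0023 and 9.5e-06), though not with the mean of its probe sets (-0.20, -0.28 and -0.22, none called). Mapk8, the stress kinase JNK1, fell by 0.98, 0.75 and 0.75 (adjusted p = 2.6e-06, 9.6e-05 and 0.00015). Ddit3, the stress factor CHOP, fell by 0.53, 0.57 and 1.10 (adjusted p = 0.0029, 0.0019 and 2.3e-06). Foxo3, a forkhead factor known to activate Bcl2l11 and named here after its values were seen, fell by 0.61, 0.56 and 0.65 (adjusted p = 0.014, 0.029 and 0.015). It lies outside the rule by which the other genes were named, and its calls were not checked under the alternative settings. Fbxw7, which targets Mcl1 protein for degradation, rose in ACI (0.88, adjusted p = 0.00024) and gave 0.24 in COP and 0.09 in BN, with ACI and BN apart by 0.78 (adjusted p = 0.037). Trib3, a stress-induced pseudokinase, fell in BN (-0.86, adjusted p = 0.041) and gave 0.64 and 0.43 in ACI and COP, with a difference of 1.51 between ACI and BN (adjusted p = 0.027). Its BN call was lost without BN control 1 or 3 or BN DES 1 or 2 (-0.82 to -0.65, adjusted p = 0.11 to 0.19).

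At the mitochondrial membranes, 10 of 10 genes of the channel and permeability pore list were tested, of which 1 rose and 0 fell in ACI, 1 rose and 1 fell in COP, and 2 rose and 2 fell in BN (medians 0.01, 0.02 and -0.17). Slc25a5, an ADP/ATP carrier, rose by 0.76, 0.63 and 0.51 in ACI, COP and BN (adjusted p = 1.3e-07, 2.8e-06 and 6.5e-05). Bcap31, a protein of the endoplasmic reticulum that caspase 8 cuts, fell in BN (-0.55, adjusted p = 0.00029) and gave 0.00 and -0.02 in ACI and COP, and BN differed from both (0.55 and 0.54, adjusted p = 0.015 and 0.036).

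**Figure D4:**
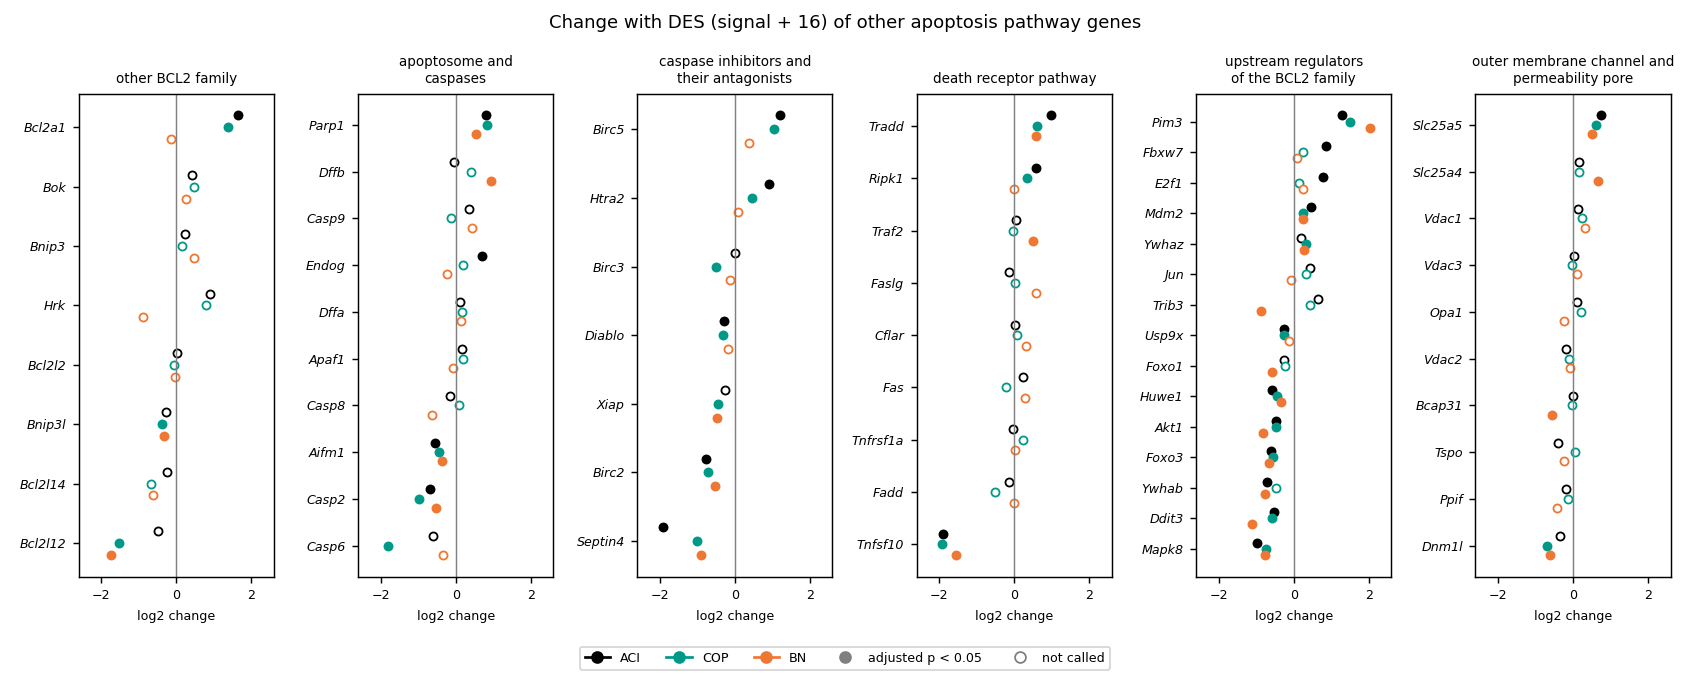
Change with DES in log2(signal + 16) of every tested gene of the 6 pathway lists in ACI (black), COP (green) and BN (orange), filled where the adjusted p was under 0.05. Pim3 reaches 2.05 in BN and Septin4 -1.93 in ACI, with Tnfsf10 close to it at -1.92 in COP, whereas most other genes lie within 1 of 0.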

How the data were processed

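Anterior pituitary RNA of 21 rats was hybridized to Affymetrix Rat Genome 230 2.0 arrays (1 color). Per probe set, the authors deposited an intensity on a linear scale, brought to a trimmed mean near 500.1 on each array, with summarization software not given in the sources. They were not rescaled. Signals were converted to log2 after adding 16, which understates the change of low genes. Of 31099 probe sets, 57 Affymetrix controls were left out, and the 21827 with a signal over the array's 40th percentile on 3 or more arrays were tested. In the platform annotation 20826 probe sets had 1 symbol, 436 several and 9780 none, and those with several were named for no gene. Groups came from the sample titles. A linear model of 6 group means over all 21 arrays was fitted with limma 3.58.1 in R 4.3.3 (mean-variance trend, two-sided, Benjamini-Hochberg within each comparison), for DES against control, strain against strain and the difference in response. The steps were tested on simulated data (200 of 21827 probe sets changed). In ACI, DES against control recovered 55.4% of changes of 1 and 88.9% of changes of 2 on the log2 scale, and the ACI minus BN response 29.3% and 73.1%. The simulated noise was independent between arrays, and far fewer probe sets changed than the 10727 called in ACI in the data. These shares check the steps and do not give the power of the tests reported. The members and lists were chosen with earlier results of these data known. Named besides the members were, per list, up to 4 genes called the same way in all 3 strains with the smallest largest adjusted p, and each gene called in a difference in response. Foxo3 was named outside this rule. Alternatives were no filter or the 60th percentile, 1 or 64 added, quantile normalization, median centring, no trend, only the groups compared, the replicate number or set of numbers as a block, each set alone, the mean of a gene's probe sets, and each array left out. The number of arrays limits the precision. Scanner files were not used here.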

Additional observations from a re-analysis of the deposited data

Results flagged for a closer look

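Within groups of 4, a rat stood far from the other 3 for 5 of 117 combinations of gene and DES group checked, and chance flags about 1 in 20. Bcl2 was 145.9 in COP DES 3 and 71.5 to 81.4 in the others. Tradd was 361.4 in BN DES 3 and 248.1 to 264.9 in the others. Fbxw7 was 585.6 in ACI DES 3 (others 512.5 to 524.7) and 336.4 in COP DES 4 (others 439.6 to 450.5). Ptprc, the leukocyte antigen CD45, was 349.9 in COP DES 3 and 355 to 355.4 in the others, a gap of little size.

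The response to DES differed between strains by the interaction term for 10 genes of the pathway lists and for none of the 9 members. Hrk and Bcl2a1 among the 10 are other genes of the BCL2 family. The 6 lists held 8, 10, 7, 9, 15 and 10 tested genes. Over all genes tested, 17.8% were called for ACI against BN and 6.96% for COP against BN. Between ACI and BN the difference was 1.78 for Hrk (adjusted p = 0.030), 1.79 for Bcl2a1 (0.032), -1.02 for Septin4 (0.013), 0.83 for Htra2 (0.0051), 0.58 for Ripk1 (0.035), -0.76 for Pim3 (0.011), 1.51 for Trib3 (0.027), 0.78 for Fbxw7 (0.037) and 0.55 for Bcap31 (0.015). Between COP and BN it was -1.47 for Casp6 (0.045) and 0.54 for Bcap31 (0.036). Leaving out single arrays kept the ACI against BN calls of Septin4, Htra2, Pim3 and Bcap31. The call was lost without any of 7 arrays for Hrk (adjusted p up to 0.10), 7 for Bcl2a1 (0.095), 8 for Ripk1 (0.091), 5 for Trib3 (0.084), 9 for Fbxw7 (0.12), 15 for Casp6 (0.11) and 11 for Bcap31 in COP against BN (0.090).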

How the results depend on the processing

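Over 34 alternatives the number of members called with DES stayed between 3 and 6 in ACI (4 as reported), between 3 and 6 in COP (5) and between 2 and 4 in BN (3). The number higher in all 3 strains (3) ran from 2 to 4. In COP the count was 3 in arrays 3 and 4 alone. The strain calls were less stable. In controls (2 as reported) there was 1 call with 64 added, with quantile normalization and with only the groups compared, 3 in arrays 1 and 2 alone (Bik in the same 2 comparisons and Bbc3 between ACI and BN, -0.52, adjusted p = 0.044), 0 in arrays 3 and 4 alone, and 0 to 2 leaving out each array in turn. After DES (2) there was 1 without the filter, with only the groups compared and with the mean of a gene's probe sets, 6 with median centring, 3 with either block, 3 in arrays 1 and 2 alone (Bik, Mcl1 and Bid), 0 in arrays 3 and 4 alone, and 0 to 3 leaving out each array. For the difference in response (0) there was 1 with median centring, 3 in arrays 1 and 2 alone, and 0 to 1 leaving out each array.

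Values that changed sign belonged to uncalled members, apart from Bad in ACI (0.073 in arrays 3 and 4). Bcl2 in ACI (-0.01) gave 0.17 with quantile normalization, 0.21 with median centring, 0.12 with the replicate block, 0.040 with the number sets as a block, 0.063 in arrays 3 and 4, and -0.082 to 0.069 leaving out each array. Bcl2 in BN gave 0.32 in arrays 1 and 2, and -0.60 to 0.089 leaving out each array. Bcl2l1 (1370812_at) gave -0.076 in ACI with the mean of its probe sets, -0.097 in COP in arrays 3 and 4, and leaving out each array -0.00041 to 0.47 in ACI and -0.032 to 0.38 in COP. Bcl2l1 (1370485_a_at) in COP gave 0.020 with median centring, 0.047 with the replicate block, 0.015 with the number sets as a block, 0.26 in arrays 3 and 4, and leaving out each array -0.40 to 0.16 in COP and -0.34 to 0.42 in BN. Mcl1 (1372520_at) in ACI gave -0.069 with quantile normalization and -0.026 in arrays 3 and 4. Bak1 in ACI gave -0.093 in arrays 1 and 2, and -0.20 to 0.13 leaving out each array. Bcl2l11 (1370787_at) in ACI gave -0.29 in arrays 3 and 4, and -0.083 to 0.35 leaving out each array. Bbc3 gave -0.33 in ACI in arrays 3 and 4 and 0.058 in COP with quantile normalization. The causes were not tested.

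Same-numbered arrays of different groups correlated in their deviations from the group means at -0.05 to 0.32 over 48 pairs, 32 of them over 0.1. The main fit did not take the numbers to pair the samples. With the replicate block the members called were 4 in ACI, 5 in COP and 3 in BN, 2 between controls, 3 after DES and 0 in response. Of 21 arrays, 15 correlated best with their own number, as a hint from the data. The median was 0.113 for same-numbered pairs and 0.112 for the 45 pairs of the other number of the same set. The correlation thus went with the set about as closely as with the number, and the main fit has no term for the set. With the set as a block, 11759, 10407 and 8329 probe sets were called with DES in ACI, COP and BN. In the main fit these were 10727, 9419 and 7319. Pairs from the other set of numbers (1 and 2 against 3 and 4) had a median of -0.12 over 90 pairs. Median centring moved the median change of all probe sets in ACI from -0.13 to 0.08, and the share of higher calls from 40.4% to 57.4% of called probe sets. Signals near the floor limit Bcl2, Bak1 and the weaker probe sets of Bcl2l1, Bcl2l11 and Bid, and among the pathway genes Bcl2a1 and Hrk.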
